A study of Rattus norvegicus with 12 samples.

Results

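RBFOX2 was depleted in PAC1 cells, a line of rat pulmonary artery smooth muscle cells, and RNA abundance was compared with that in cells given a control siRNA. The comparison used 6 of the 12 libraries of the series, the 3 with the control siRNA and the 3 with the siRNA against RBFOX2, taken by their labels. All genes of the count table with enough counts entered the test, so that pathways and gene families other than the siRNA target could be described. Both groups were the same cell line, cultured in the same way for the more differentiated state, and differed in the siRNA. Per the labels, 90 pmol of siRNA was given by reverse transfection, repeated after 24 h, with harvest 48 h after that. The study's own methods name longer intervals, and which applied was not resolved. The other 6 libraries, 3 with an siRNA against RBPMS and 3 with an siRNA against QKI, were used to ask which differences set RBFOX2 knockdown apart. The model has limits: it is 1 rat cell line, RBFOX2 was targeted by 1 siRNA, and the control is 1 scrambled sequence that the study calls C2. The study also reports that its control cells in the experiment with these knockdowns were less differentiated than those in its other RNA-seq experiment.

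RBFOX proteins bind the element GCAUG in introns and 3' untranslated regions. They act mainly on alternative splicing, in many cases enhancing an exon that lies before a bound intron and repressing one that lies after it, and cytoplasmic isoforms act on mRNA stability and translation. In vascular smooth muscle, alternative splicing and transcription by serum response factor (SRF) with its coactivators of the myocardin family both change when cells pass between a contractile and a proliferative state. Only RNA abundance per gene was analysed here, so a gene whose exons were exchanged without a change in total counts would not appear.

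The siRNAs define the comparison, so their sense strands, as listed in the study's supplement, are printed. Capitals in the RBFOX2 siRNA mark the bases that pair with positions 2 to 8, the seed, of its antisense strand.
RBFOX2 siRNA: gcaaugguucaGCCUUUUa
C2 control siRNA: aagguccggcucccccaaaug

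Rbfox2 was at 152, 152 and 159 CPM in control 1, 2 and 3 and at 37.8, 36.2 and 37.9 CPM in RBFOX2 knockdown 1, 2 and 3. CPM are counts scaled to a common library total, after correction by TMM for differences in composition, and the values of 3 libraries are given in this order throughout. The groups did not overlap (log2 fold change −2.05, SE 0.0436, adjusted p 3.36e-16). All adjusted p are from edgeR's quasi-likelihood test with Benjamini-Hochberg adjustment over 18438 genes. The neuronal paralogue Rbfox1 was under 0.2 CPM in every library, and its log2 fold change of 1.13 (adjusted p 0.034) was past the threshold in the fit used here but not in 10 of 16 alternatives. Rbfox3 did not have enough counts to be tested.

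The 6 libraries held 124 to 152 M counts, and 99.99% of the counts of the series lay in tested genes. Per the study's methods, conditions were repeated as biological replicates. The labels do not say how cultures were separated, so p-values measure the spread between these samples. The smooth muscle identity of the line could be seen in both groups, since 10 of 10 markers were above 1 CPM. Their summed level was 2168 to 2236 CPM in control and 866 to 966 CPM in RBFOX2 knockdown. Most of this level was that of Acta2, Tagln and Myl9, which were lower in knockdown. Other markers did not follow: Myh11 was higher, and Smtn and Myocd were not called. In bulk RNA, fewer cells of a type and less RNA per cell cannot be told apart. Of the markers of other cell types, the endothelial genes Kdr and Sox17 and the leukocyte genes Ptprc and Tyrobp had at most 3 counts in any of the 6 libraries. Endothelial markers were not absent, as 6 of the 12 were below 1 CPM and the others above. Their summed level was 34.7 to 39.5 CPM in control and 39.2 to 40.7 CPM in knockdown, ranges that overlapped. The summed level of the 12 fibroblast markers moved with the groups, at 20052 to 23133 CPM in control and 30224 to 32399 CPM in RBFOX2 knockdown. Most of this level was that of collagens I and III, of which the collagen I genes were higher in knockdown and Col3a1 was lower. Its part in the results on matrix genes was not tested. The summed level of 12 chondrocyte and osteoblast markers was 6114 to 7013 CPM in control and 4045 to 4246 CPM in knockdown, and that of 12 neuronal and glial markers 173 to 195 CPM and 113 to 121 CPM, both lower in knockdown. That of 9 adipocyte markers, 19.2 to 19.9 CPM and 30.9 to 33.3 CPM, was higher. So was that of 9 pericyte markers, at 693 to 774 CPM in control and 808 to 834 CPM in knockdown. Of the 10 epithelial markers, 9 were below 1 CPM, with no more than 3 counts per library for Krt19 and Krt5, and the summed level of 30.6 to 32.5 CPM in control and 73.0 to 75.0 CPM in knockdown was that of the keratin gene Krt8, which rose (1.25, adjusted p 4.61e-12).

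A gene was called, as higher or lower, where it passed an adjusted p of 0.05 and also differed more than 2-fold, a log2 fold change beyond 1 or −1. Of 18438 genes, 1283 rose (6.96%) and 873 fell (4.73%). Among the 12886 genes whose mean over the 6 libraries reached 1 CPM, 468 rose (3.63%) and 498 fell (3.86%), and the median log2 fold change was −0.02. The depth makes small differences pass the adjusted p, which 34.5% of these genes did upwards and 38.3% downwards, so the 2-fold limit decides most calls. Gene groups are described by how many of their members at 1 CPM or more (called measured below) rose or fell, to be read against 3.63% and 3.86%. The 44 groups held 1993 genes, of which 1961 were in the table, 1736 were tested and 1489 were measured. Of these 1489, 190 were called in either direction, 12.8% against 6.81% of the other measured genes. The lists were written with earlier results of these data known. A group above 3.63% or 3.86% is therefore not by itself unusual among these lists. All 966 called genes at 1 CPM or more were without overlap between the groups, so a lack of overlap stated for a called gene adds nothing to its call.

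**Figure D1:**
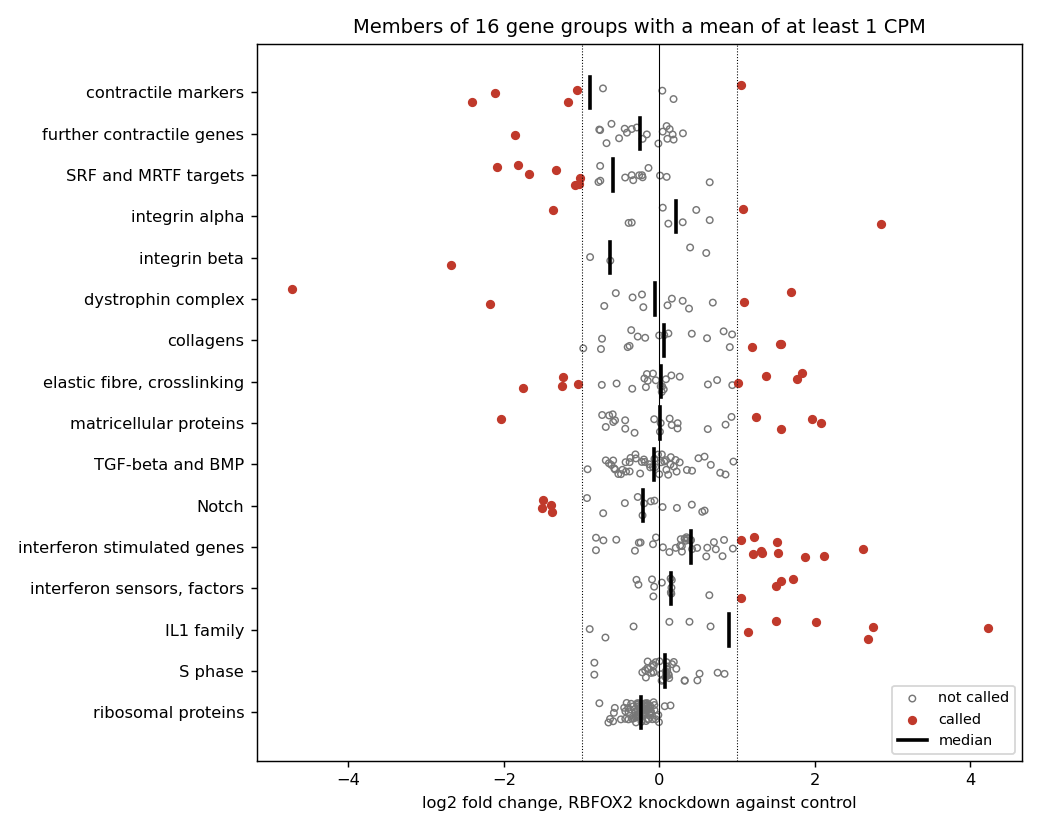
Log2 fold change (horizontal axis) of every measured member of 16 gene groups (vertical axis), with called members filled, other members open, group medians as black bars and dotted lines at 2-fold. Called members of the SRF target and Notch groups lie left of 0, called members of both interferon groups and of the IL1 family lie right of 0, and the elastic fibre and matricellular groups hold called members on both sides.

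Several contractile genes and targets of SRF fell in RBFOX2 knockdown, and so did Srf itself. Of 8 contractile markers that the study names, 4 fell and 1 rose, with a median log2 fold change of −0.89. Of 20 further measured contractile genes, 1 fell (Actg2) and 0 rose, with a median of −0.25, so that 22 of the 28 contractile genes were not called. Of 20 measured SRF and myocardin-related targets outside that list, 7 fell and 0 rose, with a median of −0.60, against −0.02 over all measured genes, and 17 of the 20 were lower at an adjusted p under 0.05 of any size. The genes that fell more than 2-fold encode, among others, actins, actin-binding proteins and products of immediate early genes.

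Srf, the transcription factor that binds the CArG box in promoters of actin and contractile genes, was at 97.0 to 100.01 CPM in control and 34.2, 34.4 and 32.7 CPM in knockdown. The groups were far apart relative to their spread, and the log2 fold change was −1.54 ± 0.0404 (SE) at an adjusted p of 4.24e-15. Myocd, the smooth muscle coactivator of SRF, was at 22.5, 20.8 and 23.2 CPM and 22.6, 23.1 and 22.5 CPM, overlapping ranges, and the log2 fold change was 0.04 ± 0.0586 (SE) at an adjusted p of 0.602. The other 5 measured factors of the group were not called either.

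Among the actins, Acta2, the smooth muscle alpha-actin that is abundant in contractile cells, was at 990.3, 973 and 1006 CPM in control and 250.2, 228 and 210.0 CPM in knockdown (log2 fold change −2.11, adjusted p 5.23e-15). Actg2, the enteric smooth muscle actin, was at 18.4, 15.6 and 15.8 CPM and 5.39, 4.66 and 3.68 CPM (−1.86, adjusted p 8.26e-09). Acta1, the skeletal muscle actin, was at 9.11, 8.96 and 8.20 CPM and 1.68, 2.12 and 1.98 CPM (−2.18, adjusted p 3.91e-11). All 3 fell without overlap between groups, as did the cytoplasmic gamma-actin Actg1, at 766, 735 and 751 CPM and 349.6, 362 and 352 CPM (−1.08, adjusted p 3.04e-13), a call that ended in the authors' normalised table at −0.97. These genes are close paralogues, and how shared reads were counted is not stated.

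Of the actin-associated markers, Cnn1, which encodes calponin, had the largest fall, from 6.66, 6.10 and 6.54 CPM to 1.52, 1.02 and 1.08 CPM (log2 fold change −2.41, adjusted p 1.53e-11). The regulatory light chain gene Myl9 was at 313, 292 and 303 CPM in control and 140.2, 136 and 128 CPM in knockdown (−1.17, adjusted p 1.08e-12), and Tagln, encoding transgelin, fell by 1.06 on the log2 scale, a call that ended in the authors' normalised table at −0.96. Myh11, the smooth muscle myosin heavy chain, went the other way. It was at 6.72, 6.34 and 6.37 CPM in control and 12.8, 13.6 and 13.7 CPM in knockdown, without overlap, and rose by a log2 fold change of 1.05 (adjusted p 3.45e-09). The kinase gene Mylk had a log2 fold change of −0.73 and the smoothelin gene Smtn one of 0.18, both short of 2-fold.

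Among SRF targets outside the contractile list, Fhl1, a LIM protein of muscle, was the most abundant in control of those that fell, at 784, 753 and 900.5 CPM in control and 239, 235 and 215 CPM in knockdown (log2 fold change −1.82, adjusted p 3.09e-14). Arc, an immediate early gene, was at 12.8, 10.3 and 12.9 CPM and 3.02, 2.87 and 2.59 CPM (−2.09, adjusted p 1.26e-11), and Filip1l was at 47.8, 48.9 and 51.3 CPM and 15.6, 15.2 and 15.6 CPM (−1.67, adjusted p 4.15e-14). Each of the 3 was separated between groups by several times its range within a group. The actin-binding protein gene Nexn fell by 1.33, and the immediate early genes Egr1 and Fos fell by 1.04 and 1.02 on the log2 scale. The calls of Egr1 and Fos are marginal: Egr1 was at −0.95 without control 3, and Fos at −0.91 without control 2.

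**Figure D2:**
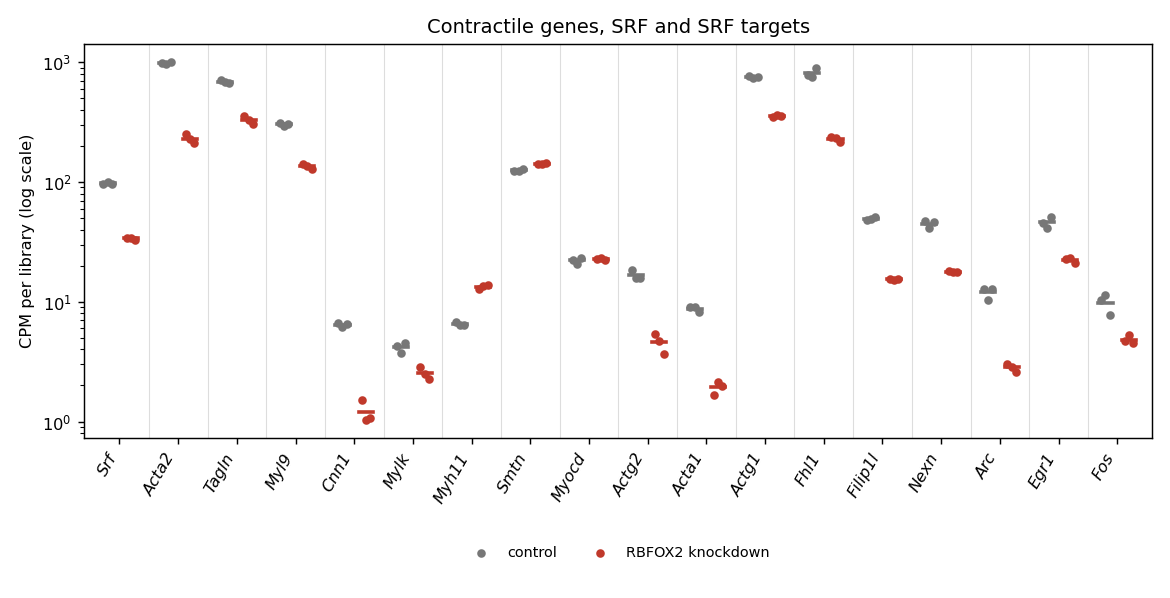
CPM on a log axis of Srf, contractile genes and SRF targets in each of 3 control (grey) and 3 RBFOX2 knockdown (red) libraries, with the group mean as a bar. The 3 red points lie below the 3 grey points except for Myh11 and Smtn, where they lie above, and Myocd, where they overlap.

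Promoters of this group were searched for the CArG box over the 250 bases before the start given by RefSeq (assembly GRCr8), on both strands. The box is CC, 6 bases of A or T, and GG, a pattern that reads the same on both strands. The box was found in 1.50% of 27457 promoters and in 1.28% of those of measured genes. It was in 6 of the 42 promoters found for the 51 measured members of the SRF and contractile lists. Of the 9 promoters of members that were called, 4 held it, those of Srf, Fhl1, Actg1 and Egr1, none from the contractile list. The lists were written from general knowledge of SRF targets, so these shares cannot say whether SRF had a part in the changes. Stretches of 60 bases from 3 promoters of genes that fell are printed in the direction of the gene, with the boxes in capitals. A match of letters is a description and not a measured binding site.
Srf, chr9:21923970-21924029, plus strand: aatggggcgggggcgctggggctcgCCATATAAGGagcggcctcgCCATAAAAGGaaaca
Fhl1, chrX:139638369-139638428, plus strand: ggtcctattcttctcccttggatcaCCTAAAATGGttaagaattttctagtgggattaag
Actg1, chr10:106121007-106121066, minus strand: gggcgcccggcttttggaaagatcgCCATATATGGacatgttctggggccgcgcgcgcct

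Receptors that attach cells to the matrix changed in both directions, and the largest falls were in the shared subunit of beta1 integrins and in the dystrophin glycoprotein complex. Of 15 measured integrin genes, 2 fell and 2 rose. Of 14 measured genes of the dystrophin complex, which links laminin outside the cell to actin inside, 2 fell and 2 rose. Medians were 0.12 and −0.05, so neither group moved as a whole.

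Itgb1, the beta subunit that pairs with the collagen, laminin and fibronectin receptor alpha chains, was the most abundant gene among the largest falls. It was at 2117, 2149 and 2174 CPM in control and 331, 343 and 331 CPM in knockdown. The level was 6.41 times lower, and the log2 fold change was −2.68 ± 0.0314 (SE) at an adjusted p of 6.9e-19. Among its partner chains, Itga9 fell from 18.7, 18.4 and 20.1 CPM to 7.37, 6.89 and 7.90 CPM (−1.37, adjusted p 7.41e-12), while the collagen receptor chain Itga1 rose from 33.9, 35.3 and 38.9 CPM to 73.9, 77.2 and 76.6 CPM (1.07, adjusted p 5.42e-09). The fibronectin receptor chain Itga5 and the beta subunit Itgb5 were short of 2-fold, with log2 fold changes of 0.65 and 0.40. Itgax, a chain better known from leukocytes, rose from under 0.5 CPM to 2.77, 2.66 and 2.48 CPM (2.85, adjusted p 4.83e-10), so it passed the 1 CPM limit through the knockdown libraries. Of the 12 macrophage and leukocyte markers, 10 were below 1 CPM and Ptprc and Tyrobp were at 3 counts or fewer, while the summed level was 38.6 to 40.03 CPM in control and 54.2 to 55.4 CPM in knockdown, and its part in this rise was not tested.

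Sspn, encoding sarcospan, had the largest fall of any gene named over the whole table. It was at 36.2, 36.2 and 39.1 CPM in control and 1.53, 1.22 and 1.46 CPM in knockdown, 26.5 times lower (−4.73, SE 0.0919, adjusted p 1.27e-16). Dag1, which encodes the dystroglycan that binds laminin, was at 398, 409 and 422 CPM in control and 90.6, 92.4 and 88.4 CPM in knockdown (−2.18, adjusted p 2.53e-16). Neither gene overlapped between groups. The sarcoglycan genes Sgce and Sgca rose, Sgce from 12.9, 12.1 and 11.3 CPM to 39.3, 39.4 and 38.9 CPM (1.70) and Sgca by a log2 fold change of 1.08, with adjusted p of 6.37e-15 and 2.57e-10.

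Around these receptors, 1 of 20 measured basement membrane genes fell, the nidogen gene Nid1 (−1.30, adjusted p 5.14e-11), and no laminin gene was called of 8. Of 36 measured focal adhesion and actin linker genes, 2 fell and 1 rose. These were Lims2, a LIM adaptor of the integrin-linked kinase (−1.45), Pdlim7, a PDZ and LIM protein (−1.12), and Flnc, encoding the muscle filamin, which rose (1.20), with adjusted p of 3.9e-08, 1.61e-14 and 1.04e-11. Ctnnb1, encoding beta-catenin, which links cadherins to actin and transduces Wnt signals, was in no list and was singled out after its values were seen. It was at 528, 536 and 567 CPM in control and 177, 184 and 173 CPM in knockdown (−1.61, adjusted p 4.16e-16). Of 20 measured cadherins and protocadherins, 4 rose, among them Cdh3, Fat4 and Pcdh9 with log2 fold changes of 1.35, 1.06 and 1.14, and 3 fell, Cdh5, Pcdh19 and Pcdhb5 with −1.10, −1.23 and −1.25, the call of Cdh5 ending at −0.999 without knockdown 1. Pcdh19 and Pcdhb5 had a knockdown mean below 1 CPM. Caveolar coat genes also split, with Cavin3 and Cavin1 higher (1.64 and 1.12) and the muscle cavin Cavin4 lower by 1.05 on the log2 scale.

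**Figure D3:**
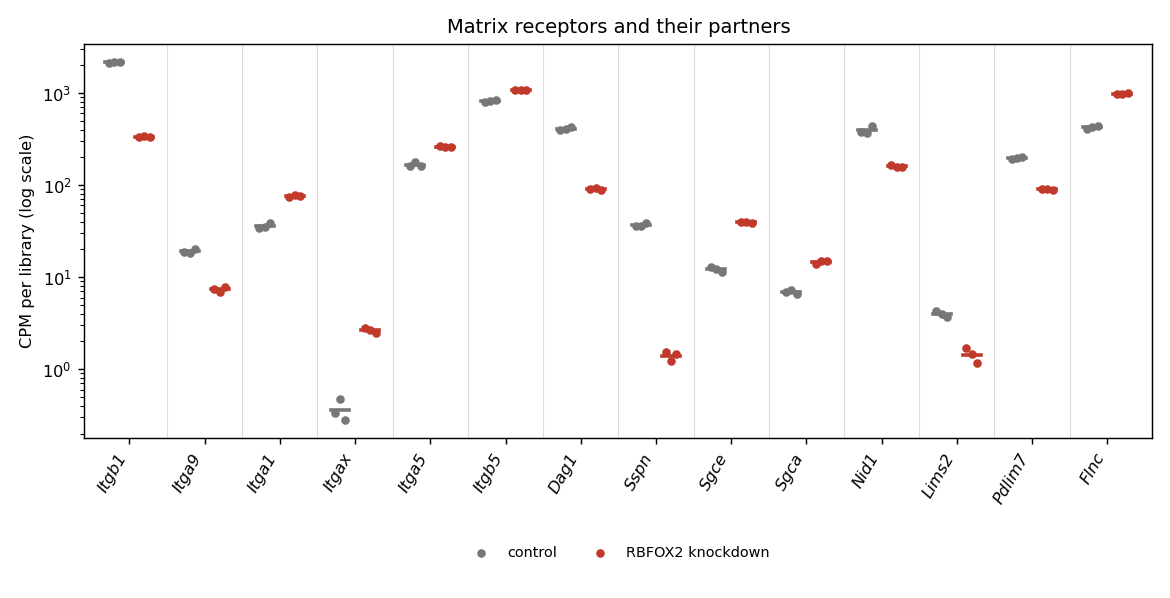
CPM on a log axis of matrix receptor and linker genes in each control (grey) and RBFOX2 knockdown (red) library, with the group mean as a bar. Itgb1, Dag1 and Sspn lie lower in all 3 knockdown libraries, and Itga1, Itgax, Sgce, Sgca and Flnc lie higher.

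Genes of the matrix itself were called in both directions. Of 19 measured collagen genes, 3 rose and 0 fell. Of 27 elastic fibre and crosslinking genes, 4 rose and 4 fell, and of 46 proteoglycan and matricellular genes, 5 rose and 4 fell. Medians of the 3 groups were 0.06, 0.02 and −0.06.

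Among collagens, Col1a2 was at 3938, 4069 and 4547 CPM in control and 9828, 9338 and 9505 CPM in knockdown (1.19, adjusted p 3.65e-11). Its partner chain Col1a1 was short of 2-fold at 0.94, and passed it at 1.00 without control 3. Col3a1 was lower by less than 2-fold (−0.41). The beaded filament chain Col6a1 rose from 417, 434 and 402 CPM to 1244, 1209 and 1231 CPM (1.56, adjusted p 1.66e-15), and the fibril-associated Col12a1 rose from 136, 132 and 157 CPM to 423, 419.6 and 409 CPM (1.56, adjusted p 2.67e-11). No other measured collagen was called, and 1 further collagen gene below 1 CPM was called higher.

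Of 16 measured enzymes that hydroxylate, crosslink or process collagen, 3 rose, 1 fell and 12 were not called (median 0.06). P4ha2, a prolyl hydroxylase subunit, rose by a log2 fold change of 1.77 and the lysyl oxidase genes Loxl3 and Lox by 1.37 and 1.01 (adjusted p 1.19e-15, 1.15e-14 and 9.65e-10), and the procollagen protease gene Adamts2 fell by 1.05 on the log2 scale (adjusted p 5.28e-11). The last 2 were marginal, Lox at 0.95 without control 2 and Adamts2 at −0.99 without control 3. The latent TGF-beta binding proteins differed among themselves. Ltbp1 was at 81.9, 83.3 and 92.6 CPM in control and 305, 302 and 309 CPM in knockdown (1.83, adjusted p 1.38e-15), while Ltbp4 and Ltbp2 fell by 1.26 and 1.24 on the log2 scale (adjusted p 7.4e-11 and 1.34e-11). Fbln5, a fibulin needed for elastic fibre assembly, fell from 221, 189 and 296 CPM to 71.4, 77.4 and 60.2 CPM (−1.76, adjusted p 1.12e-09), with the widest spread of these genes in control.

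Of 24 measured matricellular genes, whose products modulate attachment, 4 rose, 1 fell and 19 were not called (median 0.01). Tgfbi was at 4.38, 5.29 and 5.74 CPM in control and 20.04, 22.9 and 22.2 CPM in knockdown (2.08, adjusted p 5.43e-13), Tnc, encoding tenascin C, at 113, 119 and 135 CPM and 371, 359 and 359 CPM (1.57, adjusted p 2.02e-12), and Thbs1, encoding thrombospondin 1, at 737, 747 and 851 CPM and 1885, 1825 and 1808 CPM (1.24, adjusted p 9.56e-12). All 3 were separated between groups. The syndecan Sdc1 rose by 1.60 and the less abundant tenascin gene Tnn by 1.96. Tnn had a control mean of 0.632 CPM, so it passed the 1 CPM limit through the knockdown libraries. The falls among the 46 genes were Islr (−2.04), the small proteoglycan genes Srgn (−1.89) and Aspn (−1.73), and 1 other.

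Of 40 measured proteases and inhibitors, 4 fell and 1 rose. Mmp23 and Adam19 fell by 1.51 and 1.38 on the log2 scale, and the aggrecanase gene Adamts4 rose by 1.96. No member of the TGF-beta and BMP group was called, of 20 measured ligands and binding proteins, 15 receptors and transducers and 13 feedback targets, and the medians of those roles were −0.10, −0.38 and 0.06. Tgfb1 had a log2 fold change of 0.22.

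Among signalling groups, several Notch genes and Wnt modulators fell. Of 17 measured Notch genes, 4 fell and 0 rose, with members in each role: the receptor Notch3, which marks mural cells, at 68.4, 60.6 and 97.7 CPM in control and 27.5, 30.4 and 22.00 CPM in knockdown (−1.50, adjusted p 2.58e-07), the ligand Jag2 (−1.50), and the targets Hey2, at 72.5, 63.6 and 83.3 CPM and 28.5, 26.9 and 27.8 CPM (−1.40, adjusted p 1e-10), and Nrarp (−1.39). The control libraries of Notch3 were spread from 60.6 to 97.7 CPM but did not reach the knockdown range. The summed level of the pericyte markers given above went the other way. Jag2 had a knockdown mean below 1 CPM.

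Of 38 measured Wnt genes, 4 fell and 2 rose, and none of 5 ligands was called. Dkk3, a secreted protein of the Dickkopf family, was at 202, 206 and 196 CPM in control and 34.4, 33.7 and 32.5 CPM in knockdown (−2.59, adjusted p 8.63e-17). Dact1, an intracellular modulator, fell from 62.1, 62.3 and 77.3 CPM to 14.6, 15.2 and 13.7 CPM (−2.21, adjusted p 3.11e-12). The nuclear partner of beta-catenin Lef1 fell by 1.40 on the log2 scale, and the secreted frizzled-related gene Sfrp2 rose by 1.37. Of the 27 YAP and TEAD genes, Tead2 and the cofactor Vgll3 fell, by 1.80 and 1.28 on the log2 scale, while none of 17 targets was called. Yap1 itself had a log2 fold change of −0.18, and the targets Ccn1 and Ccn2 had −0.44 and −0.59.

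Growth factors divided by family. In the EGF family 3 of 12 measured genes rose, the ligands Ereg, from 6.35, 6.71 and 5.24 CPM to 21.6, 22.2 and 22.2 CPM (1.85, adjusted p 1.09e-12), Hbegf (1.39) and Btc (1.13, and 0.964 without control 2), and 1 fell. Btc had a control mean of 0.687 CPM, so it passed the 1 CPM limit through the knockdown libraries. Hgf, the ligand of the Met receptor, fell from 26.96, 27.3 and 28.9 CPM to 6.24, 5.92 and 4.86 CPM (−2.29, adjusted p 6.13e-13), and so did Spint2, an inhibitor of the protease that activates it (−1.82). The lymphangiogenic ligands moved apart, Vegfc falling from 33.6, 34.6 and 35.8 CPM to 8.83, 9.01 and 8.82 CPM (−1.96, adjusted p 7.28e-15) and the less abundant Vegfd rising to 3.85, 3.92 and 3.48 CPM (1.72, adjusted p 3.32e-08). Irs1, an adaptor of insulin and IGF receptors, rose by 1.60, and the binding protein gene Igfbp4 by 1.22. No FGF gene was called of 5 measured.

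Of 43 measured MAPK feedback and immediate early genes, 6 fell and 0 rose. They included the MAPK phosphatase gene Dusp1, at 144, 143 and 127 CPM in control and 60.3, 59.6 and 60.5 CPM in knockdown (−1.20, adjusted p 2.18e-13), and the orphan nuclear receptor genes Nr4a1 (−1.09) and Nr4a2 (−1.27), beside Egr1 and Fos. The medians of both roles were near 0, at −0.08 and −0.02, so the falls were those of single genes. Guidance genes gave 6 falls and 2 rises of 50, and 2 of the called genes had a mean below 1 CPM in 1 group. Among them Sema7a, a membrane semaphorin, fell by 1.90 on the log2 scale and the netrin receptor gene Unc5c rose by 1.51.

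Genes of vasomotor tone were affected in part. In the cGMP pathway, which relaxes smooth muscle, 2 of 13 measured genes fell, the guanylate cyclase subunit Gucy1b1, from 245, 231 and 306 CPM to 103, 113 and 100.4 CPM (−1.31, adjusted p 1.68e-10), and the cGMP phosphodiesterase Pde5a, from 21.9, 21.7 and 26.8 CPM to 8.44, 8.38 and 7.57 CPM (−1.53, adjusted p 3.25e-11). The pathway thus had lower transcripts for an enzyme that makes cGMP and for one that degrades it. Of 27 vasoactive receptor genes, 4 fell, with the serotonin receptor gene Htr1b (−1.92) and the sphingosine-1-phosphate receptor gene S1pr3 (−1.57) first, and the endothelin B receptor gene Ednrb rose (1.36). Among 13 potassium channel genes, Kcnmb4, Kcnk6 and Kcne4 fell by 1.83, 1.63 and 1.26 on the log2 scale and Kcnq5 rose by 1.43. Kcne4 was at −0.99 without control 3, and Kcnmb4 had a knockdown mean below 1 CPM. None of 19 calcium channel genes was called, while the store genes Casq2 and Itpr1 fell by 1.17 and 1.02, Itpr1 at −0.97 without control 3.

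Some interferon genes rose, and no member was called lower. Of 41 measured interferon stimulated genes, 10 rose and 0 fell, with a median of 0.40, and of 16 sensors and factors 4 rose and 0 fell. Among these, 2 of 14, Gbp1 and Mx1, had a control mean below 1 CPM. The higher summed level of the macrophage and leukocyte markers given above moved with these rises, and its part in them was not tested. None of 19 class I antigen presentation genes, which interferon also induces, was called (median 0.10).

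Irf7, a transcription factor that amplifies the response, was at 18.98, 20.8 and 19.9 CPM in control and 80.6, 62.9 and 53.5 CPM in knockdown (1.72, SE 0.116, adjusted p 8.63e-10). Dhx58, a helicase of the RIG-I family, was at 2.27, 1.93 and 1.82 CPM and 7.97, 5.26 and 4.58 CPM (1.57, adjusted p 4.71e-07). For both, RBFOX2 knockdown 1 was the highest library and all knockdown libraries lay above control. Eif2ak2, the double-stranded RNA-dependent kinase PKR, rose from 31.5, 30.2 and 33.6 CPM to 96.3, 89.4 and 82.9 CPM (1.49, adjusted p 1.72e-13), and Stat2 rose from 34.4, 37.9 and 36.7 CPM to 79.8, 75.02 and 71.2 CPM (1.05, adjusted p 3.76e-12), a call that ended at 0.999 without knockdown 1.

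Among stimulated genes, the antiviral GTPase gene Mx2 was at 7.15, 6.95 and 8.20 CPM in control and 42.2, 29.8 and 24.5 CPM in knockdown (2.11, adjusted p 9.54e-09), again highest in knockdown 1. Rsad2, encoding viperin, was at 3.38, 4.40 and 1.76 CPM and 9.16, 9.61 and 8.48 CPM (1.51, adjusted p 6.05e-06), and Cmpk2 at 4.42, 4.30 and 3.89 CPM and 13.6, 11.1 and 11.6 CPM (1.53, adjusted p 3.1e-11). Control 3 was the lowest control library for Rsad2 and for Ifit3, whose rise of 1.05 ended at 0.757 without control 3. The remaining rises were Gbp1 (2.61), Mx1 (1.87), Usp18 (1.22), Oas1a (1.32) and its close paralogues Oas1b and Oas1i. Isg15, the ubiquitin-like modifier that many responses share, was at 11.6, 11.7 and 7.24 CPM and 14.8, 12.3 and 11.6 CPM, overlapping ranges with a log2 fold change of 0.34.

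Promoters of the interferon lists were searched in the same way for the ISRE core, GAAA followed by 2 bases of any kind and a second GAAA, which interferon regulatory factors and the STAT complex ISGF3 bind, on both strands. It was found in 3.29% of 27457 promoters and in 2.61% of those of measured genes. It was in 24 of 48 promoters found for the 57 measured interferon genes, and in 7 of 11 promoters of members that were called. This list too was written from general knowledge of interferon genes, so the shares cannot say what raised them here. Stretches of 3 genes that rose are printed in the direction of the gene, with the motif in capitals, which reads TTTC, 2 bases and TTTC where it lies on the other strand.
Irf7, chr1:205800058-205800117, minus strand: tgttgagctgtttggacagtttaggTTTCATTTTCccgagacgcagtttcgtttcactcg
Rsad2, chr6:48788233-48788292, minus strand: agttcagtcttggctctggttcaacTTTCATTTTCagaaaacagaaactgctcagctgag
Oas1a, chr12:41330400-41330459, plus strand: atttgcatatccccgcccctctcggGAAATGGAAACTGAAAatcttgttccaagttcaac
In Oas1a 2 matches overlap, so the capitals run over both.

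Receptors and ligands of the interleukin 1 family rose more steeply, 6 of 12 measured genes, with 0 falls and a median of 0.90, 3 of them from a control mean below 1 CPM. Il1rl1, the receptor of interleukin 33, had the largest rise of the genes named over the whole table, from 12.3, 12.4 and 12.6 CPM to 223, 242 and 229 CPM (4.22, adjusted p 8.65e-17). Its ligand Il33 rose from 0.294, 0.255 and 0.338 CPM to 1.71, 2.03 and 1.95 CPM (2.68, adjusted p 6.58e-10). The chains of the interleukin 18 receptor rose as well, Il18rap from 2.38, 2.41 and 2.13 CPM to 14.6, 15.8 and 15.9 CPM (2.74) and Il18r1 to 3.46, 3.08 and 3.17 CPM (2.02). Il1rl2 and the kinase gene Irak1, which acts below these receptors, rose by 1.50 and 1.14. By contrast, none of the 19 measured NF-kappaB factors and targets rose, and the NF-kappaB target gene Tnfaip2 was at the limit (−1.01, and −0.98 without control 2).

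Of 10 measured chemokines and their receptors, Cx3cl1, the membrane-bound chemokine fractalkine, rose from 8.92, 8.28 and 11.8 CPM to 43.5, 47.9 and 41.1 CPM (2.19, adjusted p 2.86e-12) and Cxcl10 by 1.16, whereas Cxcl12 fell from 700.0, 651 and 825 CPM to 309, 283 and 268 CPM (−1.34, adjusted p 5.45e-11). Cxcl10 was at 0.954 without control 3. In the interleukin 6 family the receptors Il6r and Osmr fell by 1.86 and 1.08 on the log2 scale, while Lifr and the feedback inhibitor Socs3 rose by 1.45 and 1.46. Lifr had a control mean of 0.535 CPM, so it passed the 1 CPM limit through the knockdown libraries. Of 25 complement and coagulation genes, Masp1, C3ar1 and Gas6 rose by 2.30, 1.80 and 1.24, and Cd59 fell by 1.08 on the log2 scale.

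**Figure D4:**
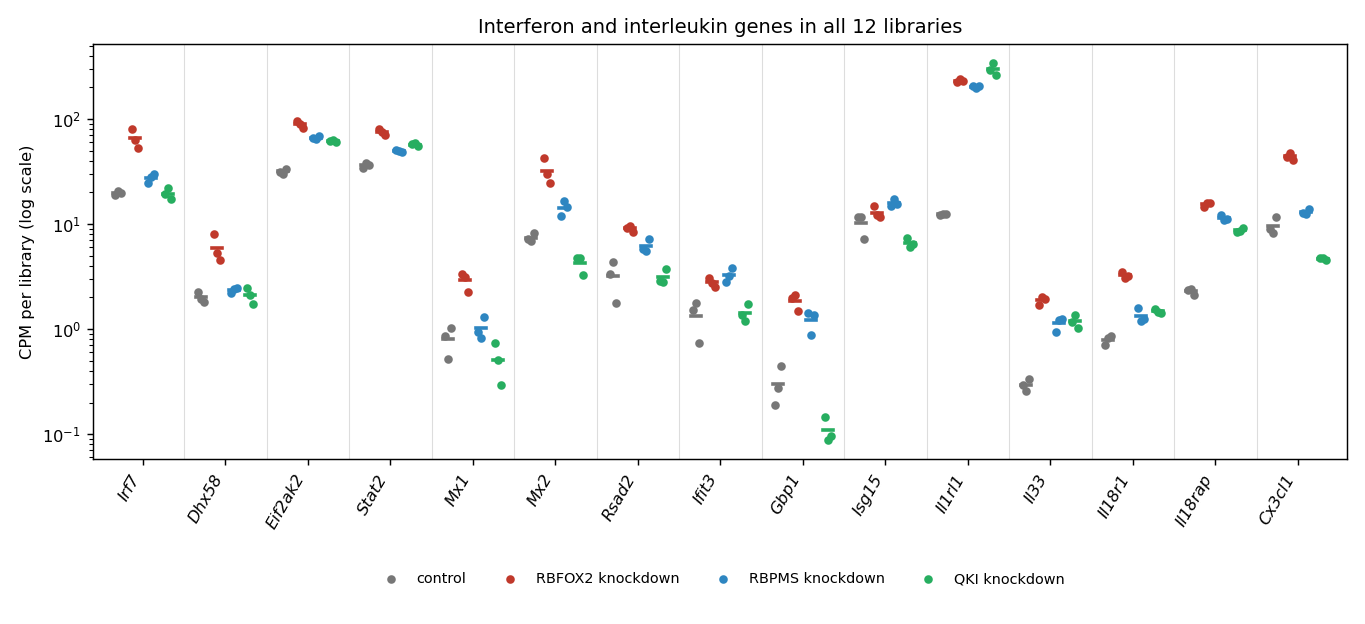
CPM on a log axis of 15 interferon and interleukin genes in each of the 12 libraries, grouped as control (grey), RBFOX2 knockdown (red), RBPMS knockdown (blue) and QKI knockdown (green), with group means as bars. Irf7, Dhx58, Mx2 and Cx3cl1 lie highest in RBFOX2 knockdown, while Il1rl1 lies at a like level in all 3 knockdowns.

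Few members of housekeeping groups were called. Of 74 measured ribosomal protein genes, none was called, though 55 were lower and 0 higher at an adjusted p under 0.05 (38.3% and 34.5% of all measured genes), with a median of −0.23. None of 50 nuclear genes of oxidative phosphorylation was called (median −0.16), nor any of 13 mitochondrial transcripts, 37 S phase genes (median 0.08), 24 cholesterol synthesis genes or 22 genes of the unfolded protein response. Of 41 mitosis genes only the checkpoint kinase gene Bub1b fell, from 101, 104 and 103 CPM to 45.4, 48.4 and 46.7 CPM (−1.13, adjusted p 5.3e-14). Among D cyclins and CDK inhibitors Ccnd2 fell from 26.4, 29.2 and 30.3 CPM to 4.74, 4.65 and 5.11 CPM (−2.57, adjusted p 3.01e-13).

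Of 47 glycolysis and hypoxia genes, 5 fell and 3 rose (median −0.29). Ak4, a mitochondrial adenylate kinase induced by hypoxia, fell from 64.3, 65.7 and 67.2 CPM to 8.97, 9.06 and 9.07 CPM (−2.86, adjusted p 3.29e-17), and the lactate exporter gene Slc16a3 fell from 7.66, 7.65 and 7.91 CPM to 1.67, 1.71 and 1.59 CPM (−2.23, adjusted p 1.32e-12). Ankrd37 and Bnip3 fell by 1.49 and 1.23 on the log2 scale. The glucose transporter gene Slc2a3 and the oxygen sensor gene Egln1 rose by 1.23 and 1.06, so hypoxia-inducible genes did not move in 1 direction.

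Of 26 NRF2 and target genes, Hmox1 was among those that rose (1.12, 0.920 without control 3) and Srxn1, a peroxiredoxin reductase, fell from 179, 184 and 149 CPM to 76.1, 76.01 and 72.1 CPM (−1.19, adjusted p 9.98e-11). The aldehyde dehydrogenase gene Aldh3a1 rose from 2.38, 2.54 and 2.06 CPM to 37.04, 39.7 and 40.5 CPM (4.07, adjusted p 2e-14), and the cytochrome gene Cyp1a1 from 0.245, 0.698 and 0.0881 CPM to 1.97, 2.69 and 2.56 CPM (2.75, adjusted p 1.53e-06), both known targets of the aryl hydrocarbon receptor. Neither rise was particular to RBFOX2 knockdown. In RBPMS and QKI knockdown, Aldh3a1 had means of 39.0 and 16.0 CPM and Cyp1a1 means of 15.5 and 53.9 CPM. The control libraries are shared by the 3 knockdowns, and Cyp1a1 had a control mean below 1 CPM. Of 27 p53 genes, 18 were lower at an adjusted p under 0.05 (median −0.38), and Sesn2 and Eda2r fell more than 2-fold, by 1.45 and 1.48 on the log2 scale, while the ribonucleotide reductase subunit gene Rrm2b rose by 1.64. In sphingolipid metabolism, Smpd3, a neutral sphingomyelinase that makes ceramide, rose from 4.59, 4.42 and 4.79 CPM to 61.5, 51.9 and 53.4 CPM (3.60, adjusted p 2.72e-13). Ugcg, which turns ceramide into glucosylceramide, rose from 45.6, 45.3 and 48.2 CPM to 165, 164 and 168 CPM (1.84, adjusted p 1.6e-14), and the ceramidase gene Acer2 fell by 1.26 on the log2 scale.

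Other splicing regulators were examined because RBFOX2 acts with several of them. Of 31 measured genes, 3 fell, Rbfox2 and the polypyrimidine tract binding proteins Ptbp3, from 262, 264 and 277 CPM to 96.5, 98.4 and 98.2 CPM (−1.45, adjusted p 1.14e-14), and Ptbp2, from 35.1, 33.4 and 35.5 CPM to 15.96, 16.2 and 16.5 CPM (−1.09, adjusted p 9.79e-13). None of 8 partners in the LASR complex and none of 27 SR proteins and hnRNPs was called. Rbpms2, Rbpms, Qk and Mbnl1 had log2 fold changes of −0.97, −0.81, −0.42 and −0.36, and Mbnl2 and Mbnl3 of 0.48 and 0.98, all short of 2-fold, though Mbnl3 passed it in 5 of 16 alternatives, with 1.00 without control 3 and 1.03 in the authors' normalised table. Of 47 smooth muscle and mesenchymal transcription factors, 3 fell, Foxs1 (−1.84), Tbx2 (−1.23) and Twist2 (−1.06), and 2 rose, Runx1 from 48.4, 51.3 and 46.3 CPM to 102, 103 and 108 CPM (1.10, adjusted p 2.35e-12) and Sox6 (1.06). The call of Twist2 ended at −0.995 without knockdown 2, and that of Sox6 at 0.99 without control 1 and 0.987 without knockdown 1. None of 17 Hox and related genes was called.

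The largest changes over the whole table were taken among called genes that averaged 5 CPM or more. Besides Il1rl1, Aldh3a1, Smpd3 and Il18rap, the 12 largest rises held Klhl40, a muscle kelch protein, from 2.03, 2.68 and 1.58 CPM to 21.5, 21.6 and 23.8 CPM (3.40), the uroplakin gene Upk3b (2.72), Clip3 (2.49) and Tnfsf12, encoding the cytokine TWEAK (2.49). The other 4, Arpc5, a subunit of the actin-nucleating Arp2/3 complex, Stt3a, a subunit of oligosaccharyltransferase, Olfml3 and Fbxo6, rose by 2.89, 2.35, 2.55 and 2.44. Arpc5 was at 59.4, 59.3 and 59.8 CPM in control and 428, 448 and 445 CPM in RBFOX2 knockdown, and at 383 to 410.2 CPM in RBPMS knockdown and 365 to 389.5 CPM in QKI knockdown. Against the other knockdowns the log2 differences of these 4 genes lay between −0.26 and 0.23. As the 3 knockdowns share the control libraries, a rise in all of them and a low level in the control libraries cannot be told apart.

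Of the 12 largest falls, Sspn, Ak4, Itgb1, Dkk3, Ccnd2 and Hgf are described above. Nox1, a superoxide-producing NADPH oxidase of vascular smooth muscle, fell from 10.4, 11.1 and 9.82 CPM to 1.01, 0.896 and 1.05 CPM (−3.40, adjusted p 2.12e-13). Ncbp2, a subunit of the nuclear cap-binding complex, fell from 60.05, 58.7 and 60.5 CPM to 10.2, 10.3 and 10.7 CPM (−2.52, adjusted p 2.79e-17), and Inpp5a, an inositol trisphosphate phosphatase, fell by 2.47 on the log2 scale (adjusted p 3.57e-17). The others were Sypl1, Tbc1d8b and Snn, at −2.58, −2.50 and −2.31. The choice of these 12 genes required that the 3 knockdown libraries lay below the 3 control libraries. Several also fell in the other knockdowns. Means in RBPMS and QKI knockdown were 1.75 and 1.67 CPM for Nox1 and 58.2 and 46.9 CPM for Dkk3. They were 21.6 and 13.7 CPM for Ak4, 4.63 and 1.73 CPM for Hgf and 9.44 and 1.71 CPM for Ccnd2. Itgb1, Sypl1, Inpp5a, Ncbp2, Tbc1d8b and Snn fell less or not at all there. A fall in all 3 and a high level in the shared control libraries cannot be told apart.

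To ask what set RBFOX2 knockdown apart, it was compared directly with the RBPMS and QKI knockdowns, contrasts that do not use the control libraries. Of the 12886 measured genes, 1.92% were called higher and 2.16% lower than in RBPMS knockdown, and 9.09% higher and 3.98% lower than in QKI knockdown. Genes called against control and called the same way against both other knockdowns numbered 68 upwards (0.528%) and 107 downwards (0.83%). At a mean of 5 CPM or more, without overlap with control and without placeholder symbols, 26 were higher and 83 lower.

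**Figure D5:**
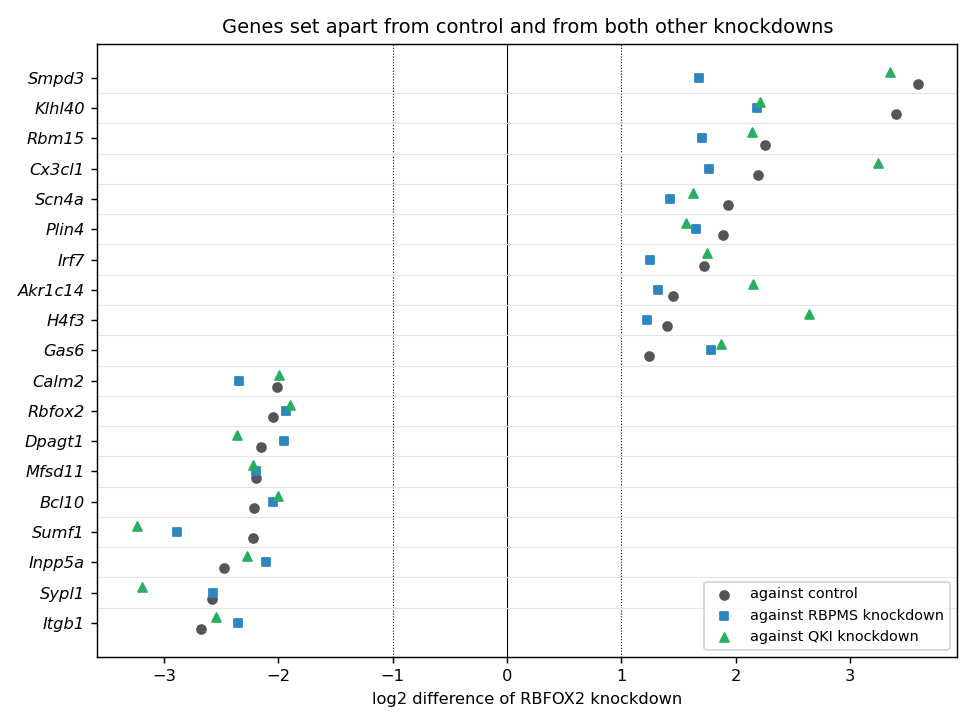
Log2 difference (horizontal axis) of RBFOX2 knockdown from control (grey circles), RBPMS knockdown (blue squares) and QKI knockdown (green triangles) for 10 higher and 9 lower genes chosen by the largest minimum difference over the 3 contrasts, with dotted lines at 2-fold. All 3 symbols of each gene lie beyond the same dotted line.

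Among the falls set apart, Itgb1 was at 1668 to 1729 CPM in RBPMS knockdown and 1945 to 1970.2 CPM in QKI knockdown, and RBFOX2 knockdown was lower by log2 differences of −2.35 and −2.55 (adjusted p 4.67e-18 and 2.07e-19). Calm2, 1 of several genes for the calcium sensor calmodulin, was at 622, 604 and 586 CPM in control and 149.7, 150.4 and 149 CPM in RBFOX2 knockdown (−2.01, adjusted p 6.64e-16), and at 707 to 821 CPM and 586 to 611 CPM in the others. Both genes were lower in RBFOX2 knockdown than in every other library of the series.

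Sypl1 was at 168, 166 and 164 CPM in control and 26.98, 28.7 and 27.6 CPM in RBFOX2 knockdown (differences from RBPMS and QKI knockdown of −2.57 and −3.19). Sumf1, which activates sulfatases, was at 53.5, 54.4 and 52.02 CPM and 11.5, 10.8 and 11.9 CPM (differences −2.88 and −3.24), and Dpagt1, the enzyme that starts N-glycan synthesis, at 85.6, 88.8 and 85.4 CPM and 20.4, 19.8 and 18.1 CPM (differences −1.95 and −2.36). Bcl10, an adaptor on the way to NF-kappaB, fell by 2.22 on the log2 scale, Inpp5a by 2.47 and the transporter-like Mfsd11 by 2.19, each with differences of a like size from the other knockdowns. Rbfox2 was set apart too, and each of these 8 other genes had a larger minimum difference over the 3 contrasts than the target. Dag1 and Ctnnb1 were also lower than in both other knockdowns, Dag1 by −1.63 and −1.84 and Ctnnb1 by −1.37 and −1.23.

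Among the rises set apart, Klhl40 was at 4.25 to 5.38 CPM in RBPMS knockdown and 4.10 to 5.49 CPM in QKI knockdown, with differences of 2.19 and 2.21 (adjusted p 3.08e-10 and 7.22e-11). Rbm15, an RNA-binding protein of the methyladenosine writer complex, was at 16.5, 18.1 and 16.96 CPM in control and 80.1, 83.2 and 83.9 CPM in RBFOX2 knockdown (2.26, adjusted p 1.21e-15), and at 23.9 to 27.5 CPM and 17.7 to 19.3 CPM in the others. Cx3cl1 had differences of 1.77 and 3.25, and Smpd3 of 1.68 and 3.34. The lipid droplet gene Plin4, the muscle sodium channel gene Scn4a, the Axl and Mer ligand gene Gas6, the steroid dehydrogenase gene Akr1c14 and the histone gene H4f3 made up the list with Irf7.

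The interferon genes also differed from the other knockdowns. Of 57 measured, 9 were higher and 0 lower than in RBPMS knockdown, against 1.92% and 2.16% of all measured genes, 13 were higher and 0 lower than in QKI knockdown, and 6 were set apart from both, Irf7 by 1.25 and 1.75 and Mx2 by 1.16 and 2.92 among them. For the interleukin 1 family, 1 of 12 was set apart, Il18r1, while Il1rl1 differed by 0.18 and −0.37. For SRF targets, 0 of 20 were set apart from both. Srf was lower than in RBPMS knockdown by a difference of −1.06 and than in QKI knockdown by −0.61, and Acta2 by −0.46 and −0.95, and of these 4 differences that of Srf from RBPMS knockdown was past 2-fold. Sspn was lower than in RBPMS knockdown by −4.48 but higher than in QKI knockdown by 1.14, as its level there was 0.468 to 0.774 CPM.

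Against control, with the 3 control libraries shared, Srf had log2 fold changes of −1.54, −0.47 and −0.93 in the RBFOX2, RBPMS and QKI knockdowns, Acta2 of −2.11, −1.65 and −1.16, and Notch3 of −1.50, −2.42 and −3.70. Matrix genes were also set against QKI knockdown. Of 46 proteoglycan and matricellular genes 15 were called higher and 2 lower than there, and of 19 collagens 7 and 1, against 9.09% and 3.98% of measured genes. Against control, the medians of these 2 groups were −0.06 and 0.06 in RBFOX2 knockdown and −0.87 and −0.30 in QKI knockdown. As groups, they were thus lower in QKI knockdown rather than higher in RBFOX2 knockdown. Col6a1 and Ltbp1 differed from QKI knockdown by 1.84 and 1.89, and Tnc from both by 1.03 and 1.39.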

How the data were processed

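RNA abundance in PAC1 cells was taken from the deposited tables, in which every column matched 1 of 12 libraries by its title. The raw counts were made by the authors with STAR, the rat assembly mRatBN7.2, featureCounts and a RefSeq annotation, per the study's methods. The normalised signal deposited by the authors came from the same counts after a noise filter and quantile normalisation, and was used only as an alternative. Strand, multi-mapped reads and overlapping genes are not stated for the counting. Of the counts from 1 to 20 in the 6 libraries, 68.8% were even, so halved counts were also tried.

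Counts were fitted with edgeR 4.0.16 in R 4.3.3 (filterByExpr, TMM, quasi-likelihood test, two-sided, all 12 libraries with 1 coefficient per group), which left 18438 of 33294 genes. The SE is the absolute log2 fold change divided by the square root of F. Tested on simulated data for this comparison, with 18165 genes fitted and 50 changed genes at each of 4 fold sizes, the fit recovered 100% at each size, with 1 false call. The changed genes had a mean of 5 CPM or more and log2 fold changes of −3, −1.5, 1.5 or 3. Calls nearer the 2-fold limit or at lower levels were not tried in this way. Library totals of the 12 libraries were 111 to 152 M, and intervals from such counts would cover counting error only. The 3 libraries of a group differed by more than sampling noise (chi-square per degree of freedom 4.64 to 21.5 in the 2 groups compared). With 3 against 3 libraries an exact permutation test cannot go below p = 0.1.

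The comparison, the gene lists and the rules were chosen with earlier results of these data known. Named genes were the RBFOX genes, the study's contractile markers, RBPMS, QKI and MBNL genes, the 12 largest rises and falls over all called genes (mean of 5 CPM, no overlap, no placeholder symbol), the 3 largest in each direction per list (mean of 1 CPM), and the 10 in each direction furthest from control and both other knockdowns. A further 40 genes were named after their values were seen, among them genes given as uncalled. Alternatives were other scalings, filters and tools, the 6 libraries of a contrast alone, a replicate block, leaving out each library, and the normalised table with pseudocounts of 1 and 5. Promoters came from RefSeq (GRCr8), a different assembly from the authors', and were found for 75.8% of measured genes. Splicing was not analysed here, and 1 gene that the rules took and 1 gene group are not reported here.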

Additional observations from a re-analysis of the deposited data

How the results depend on the processing

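The number of genes called against control was 2156, and 2035 to 2118 when each library was left out in turn. Against RBPMS knockdown it was 1386 (1269 to 1401) and against QKI knockdown 3389 (3283 to 3347). Library-size scaling, DESeq2, the 6 libraries alone, halved counts and no filter kept the 3 counts within 1.5 times. They moved further with a mean of 200 counts required (840, 435 and 1515), with a test against 2-fold itself (glmTreat, 819, 313 and 1791) and with the adjusted p alone (11113, 10455 and 12636), and against RBPMS knockdown in the normalised table with a pseudocount of 5 (826). Requiring 200 counts tests fewer genes, glmTreat and the adjusted p alone change the rule itself, and the normalised table differs in its filter, scaling and test as well as the pseudocount (1049 with a pseudocount of 1), so the cause was not tested. The share called higher against control was 59.5%, and 50.5% at 200 counts, 65.0% with library totals only, where the median of all genes was 0.0692 against 0.015, and 51.2% and 51.5% in the normalised table with pseudocounts of 1 and 5. Against RBPMS knockdown it was 58.7%, and 69.0% with library totals only, where the median of all genes was 0.108, 42.1% at 200 counts, 46.7% and 44.6% in the normalised table, and 36.4% by glmTreat.

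Replicate numbers did not pair the libraries (correlations of same-numbered deviations −0.0107, −0.00155 and −0.106). A replicate block gave 2110, 1361 and 3360 calls in the 3 contrasts.

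Of 219 named genes, 193 kept their call and direction in 16 alternatives. Of the others, 25 lost or gained a call, most of them close to the 2-fold limit and Rbfox1 with very few counts, and 22 of them did so when 1 library was left out. Myocd, not called, lay between −0.00873 without control 2 and 0.0700 without control 3. The rises of Ifit3, Cxcl10 and Hmox1 fell short of 2-fold without control 3 (0.757, 0.954 and 0.92). Gene groups were checked over the alternatives as well. Their counts of called members moved in 61 checks and stayed the same in 1411. Their medians moved in 368 checks and stayed the same in 1104, so they depended more on the processing than the counts did. Small group medians given above are to be read with this limit.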
